A study of Mus musculus with 4 samples.

Results

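The CD28 family genes Cd28, Icos, Ctla4, Pdcd1 and Btla were examined in RNA sequencing libraries of double negative T cells from the mouse liver. The family was chosen by gene symbol, and its 5 genes were each found as a single row among the 17454 rows of the deposited table. The family and the lists of related genes below were chosen with earlier results of these data known. Their counts beside the shares of all genes are therefore descriptive. Adult C57BL/6 mice were fed a methionine-choline deficient diet (2 libraries) or a normal diet (2 libraries), and the same sort was used for both diets: live liver cells with CD45 and CD3 on their surface and without NK1.1, CD4 or CD8. The deficient diet is widely used to produce fatty liver with inflammation in mice. Mice on this diet are also known to lose weight, unlike most patients with fatty liver. How many animals stood behind a library, and whether different animals supplied the libraries of one diet, is not in the labels, and p-values therefore describe library-to-library spread, which may be technical.

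The CD28 family are receptors of the immunoglobulin superfamily that adjust how a T cell answers its antigen receptor. CD28 is present on resting T cells and gives the costimulatory signal when it binds CD80 or CD86, while ICOS appears after activation and binds ICOS ligand. CTLA-4 competes with CD28 for CD80 and CD86 and restrains the response. PD-1, encoded by Pdcd1, binds PD-L1 and PD-L2, and BTLA binds HVEM, a member of the tumour necrosis factor receptor family. Both inhibitory receptors recruit phosphatases. In the RefSeq annotation of the mouse genome Cd28, Ctla4 and Icos lie in that order on chromosome 1 with no other protein-coding gene between them.

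The libraries carried the genes of CD3 chains and of CD45, and genes of the excluded surface markers had lower sums on the deficient diet. The summed level of Cd3d, Cd3e, Cd3g, Cd247 and Ptprc was 1020.3 and 1284 FPKM on the deficient diet and 1374 and 1042 FPKM on the normal diet (FPKM is a level scaled to transcript length and to the mapped fragments of the library). Ptprc, which encodes CD45 and is not limited to T cells, made up 209 and 220 FPKM of these sums, against 424 and 309 FPKM. Cd4, Cd8a, Cd8b1 and Klrb1c, the genes of the markers used for exclusion, summed to 20.2 and 20.8 FPKM on the deficient diet and to 69.7 and 45.5 FPKM on the normal diet, with none of the 4 past a limma adjusted p of 0.05 and none listed at 0. Each of the 4 was lower in both deficient diet libraries, as were 25.5% of genes tested. Cd8a had 0.836 and 1.42 FPKM, against 22.4 and 8.26 FPKM on the normal diet. Cd8b1 had 13.4 and 14.0 FPKM, against 25.2 and 19.3 FPKM. Macrophage and dendritic cell markers (8 genes) summed to 3728 and 1693 FPKM on the deficient diet, against 495 and 3168 FPKM on the normal diet, and hepatocyte markers (4 genes) to 51.0 and 27.6 FPKM, against 10.9 and 60.2 FPKM. The part of these cells in the family's values was not tested. The values summed to between 370112 and 389403 FPKM per library, and the number of reads behind them is unknown.

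Icos and Ctla4 rose on the deficient diet, and no member fell past the threshold. By limma on log2(FPKM + 1), 2 of 5 members passed a Benjamini-Hochberg adjusted p of 0.05 as higher, where 1.22% of all 10423 genes tested did, and 0 passed as lower, where 1.53% of all genes did. Without regard to the test, both deficient diet libraries lay above both normal diet libraries for Icos, Ctla4 and Pdcd1, as for 30.7% of genes tested. Cd28 lay below, as did 25.5% of genes tested, and Btla overlapped between the diets. All 5 members passed the filter of at least 1 FPKM in at least 2 libraries, in each case in all 4 libraries. In bulk libraries of sorted cells, more cells expressing a gene and more RNA per cell cannot be told apart.

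**Figure D1:**
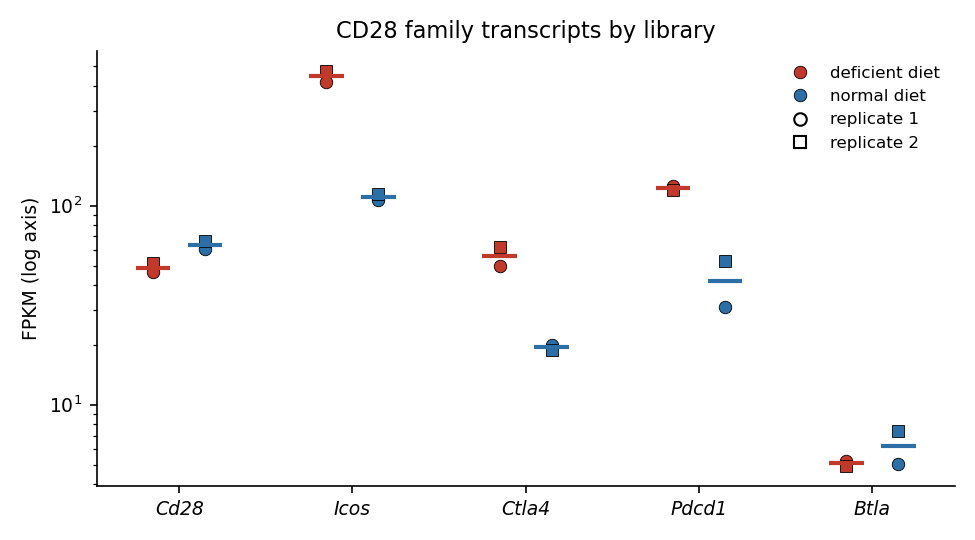
Level of each CD28 family gene in FPKM (log axis) for each of the 4 libraries, deficient diet in red and normal diet in blue, circles for replicate 1 and squares for replicate 2, with bars at the mean of the 2 libraries. The deficient diet libraries sit above the normal diet libraries for Icos, Ctla4 and Pdcd1 and below them for Cd28, and Btla overlaps.

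Among the costimulatory receptors, Icos was the most abundant member on both diets. Its level was 416 and 477 FPKM in the deficient diet libraries and 106 and 114 FPKM in the normal diet libraries, so the lowest deficient diet library stood well above the highest normal diet library. By mean FPKM this was a 4.06-fold difference (447 ± 43.1 against 110.0 ± 5.46 FPKM, mean ± SD, n = 2 per diet). On the log2 scale the change was 2.01 ± 0.14 (SE), with a 95% interval of 1.63 to 2.38 and a limma adjusted p of 0.0290. A larger rise was fitted for 0.700% of genes tested. Leaving out deficient diet replicate 1 gave an adjusted p of 0.0855, leaving out deficient diet replicate 2 gave 0.231 and leaving out normal diet replicate 1 gave 0.0750, while the log2 change stayed between 1.91 and 2.11.

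Cd28, the receptor that resting T cells already carry, had 46.3 and 51.2 FPKM in the deficient diet libraries and 60.4 and 66.2 FPKM in the normal diet libraries. The groups did not overlap, and the difference was small beside that of Icos. Mean levels were 48.7 ± 3.51 FPKM on the deficient diet and 63.3 ± 4.06 FPKM on the normal diet. The log2 change of -0.37 ± 0.15 (SE) did not pass (limma adjusted p = 0.229), and its 95% interval ran from -0.75 to 0.01.

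Among the inhibitory receptors, Ctla4 had 49.6 and 61.7 FPKM in the deficient diet libraries and 19.9 and 18.9 FPKM in the normal diet libraries. Both deficient diet libraries were thus above both normal diet libraries, by 2.87-fold in the means (55.7 ± 8.60 against 19.4 ± 0.668 FPKM). The log2 change was 1.47 ± 0.18 (SE), with a 95% interval of 1.01 to 1.92 and a limma adjusted p of 0.0365. With each library left out in turn the log2 change ran from 1.31 to 1.62 and no longer passed: the adjusted p was 0.0881 and 0.237 without deficient diet replicates 1 and 2, and 0.0985 and 0.0519 without normal diet replicates 1 and 2. CTLA-4 and ICOS are also abundant on regulatory T cells. Of the markers of that cell type, Foxp3 had 0.189 and 0.308 FPKM on the deficient diet and 0.455 and 0.221 FPKM on the normal diet, near 0 in every library. Foxp3, Ikzf2 and Ikzf4 together summed to 9.24 and 10.5 FPKM, against 8.49 and 8.93 FPKM. Most of each sum was Ikzf2, which overlapped between the diets. Ikzf4 had 1.00 and 1.18 FPKM on the deficient diet, against 0.758 and 0 FPKM on the normal diet, without overlap (limma adjusted p = 0.373).

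Pdcd1 differed between the diets by a mean fold close to that of Ctla4, with a wider spread. It had 126 and 119.8 FPKM in the deficient diet libraries and 30.9 and 52.7 FPKM in the normal diet libraries. The deficient diet libraries lay close together and the normal diet libraries far apart, with no overlap between the diets. The mean was 2.94-fold higher on the deficient diet (123 ± 4.33 against 41.8 ± 15.4 FPKM). Its log2 change of 1.58 ± 0.28 (SE; 95% interval 0.87 to 2.30) missed the threshold with a limma adjusted p of 0.0586. Without normal diet replicate 2, the library with the higher Pdcd1 level on that diet, the change was 1.96 and the adjusted p 0.0225. Centring the libraries on their medians or quantile normalization also brought it past the threshold, with adjusted p of 0.0471 and 0.0436. In the rest of the alternatives it did not pass, and the adjusted p was 0.172, 0.304 and 0.101 without deficient diet replicate 1, deficient diet replicate 2 and normal diet replicate 1 in turn, and 0.216 without a filter on low values.

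Btla was the least abundant member on both diets. It had 5.24 and 4.93 FPKM in the deficient diet libraries and 5.02 and 7.42 FPKM on the normal diet, where replicate 2 alone stood apart. The log2 change was -0.23 ± 0.26 (SE; 95% interval -0.91 to 0.45; limma adjusted p = 0.661), and without that library it was 0.01. BTLA is also carried by B cells. Their markers Ms4a1, Cd79a and Cd79b summed to 40.4 and 31.7 FPKM on the deficient diet, against 21.2 FPKM in normal diet replicate 1 and 86.7 FPKM in normal diet replicate 2, and their part in the Btla value was not tested.

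**Figure D2:**
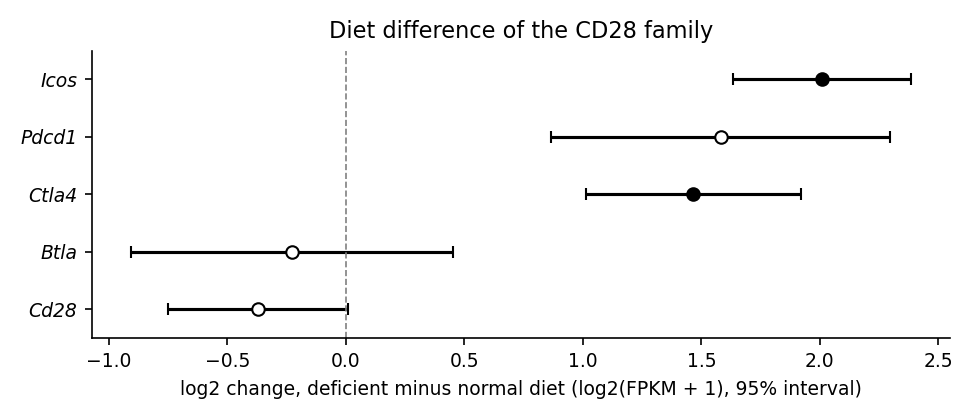
Change of each CD28 family gene on the log2(FPKM + 1) scale, deficient minus normal diet, with the 95% interval of the limma fit of all genes and filled points for an adjusted p under 0.05. Icos (2.01) and Ctla4 (1.47) passed, Pdcd1 (1.58) has a wider interval, and the intervals of Btla and Cd28 include 0.

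The balance between the members differed between the diets. Summed over the 5 genes, the level was 643 and 715 FPKM on the deficient diet and 222 and 259 FPKM in the normal diet libraries. Icos made up 64.7% and 66.7% of that sum on the deficient diet and 47.7% and 44.0% on the normal diet. Cd28 made up 7.19% and 7.17% on the deficient diet, against 27.2% and 25.5% on the normal diet. The shares of Ctla4 lay between 7.30% and 8.93% in all 4 libraries and overlapped between the diets. Those of Pdcd1 also overlapped, at 19.6% and 16.8% on the deficient diet and 13.9% and 20.3% on the normal diet. Btla made up 0.815% and 0.689% on the deficient diet and 2.26% and 2.86% on the normal diet, with no overlap. The shares of a library add up to the whole, so a higher level of Icos lowers the shares of the others. The levels of Btla themselves overlapped, at 5.24 and 4.93 FPKM against 5.02 and 7.42 FPKM. Those of Ctla4 were 2.87-fold higher in the means although its shares overlapped.

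**Figure D3:**
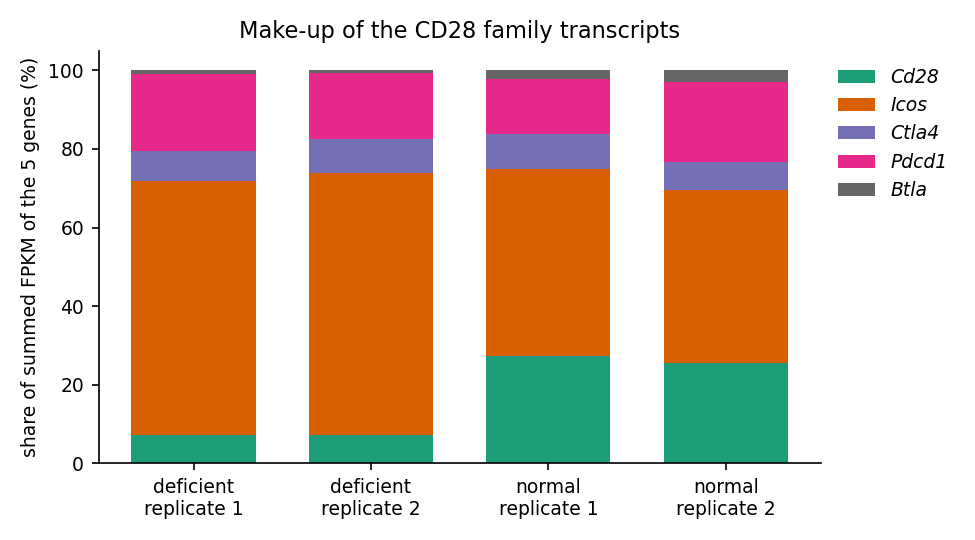
Share of each gene in the summed FPKM of the 5 CD28 family genes, in percent, for each of the 4 libraries. Icos holds 64.7% and 66.7% in the deficient diet libraries and 47.7% and 44.0% in the normal diet libraries, and the share of Cd28 is lower on the deficient diet.

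The order of the levels also differed. On the deficient diet the order by mean FPKM was Icos, Pdcd1, Ctla4, Cd28 and Btla. In that order the libraries of Ctla4 and Cd28 overlapped, and their means differed 1.14-fold. On the normal diet the order was Icos, Cd28, Pdcd1, Ctla4 and Btla, with no overlap between neighbours, and the closest neighbours were Cd28 and Pdcd1 with a 1.51-fold difference in means. Within a library, the FPKM ratio of Ctla4 to Cd28, receptors that share their ligands, was 1.07 and 1.21 on the deficient diet and 0.329 and 0.286 on the normal diet. Ctla4 therefore had the higher value of the pair in both deficient diet libraries, by a small margin, and the lower value in both normal diet libraries. As the unit was inferred, which of the pair had more transcripts is less certain than the difference in ratio between the diets. The same limit holds for the order and the shares of all members, including Icos as the most and Btla as the least abundant. The corresponding ratio of Icos to Cd28 was 8.996 and 9.314 on the deficient diet, against 1.76 and 1.72 on the normal diet, and that of Pdcd1 to Cd28 was 2.72 and 2.34, against 0.511 and 0.797. Neither set of ratios overlapped between the diets. On the log2(FPKM + 1) scale these ratios were higher on the deficient diet by 1.84 for Ctla4, 2.38 for Icos and 1.95 for Pdcd1, each with an exact two-sided permutation p of 0.333, the smallest that 2 libraries against 2 can give. For Btla over Cd28 the difference was 0.14 (exact permutation p = 0.667). The 4 ratios share Cd28 and were not adjusted for number, as none could pass.

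To show the DNA in front of the inhibitory receptor genes, whose levels differed in how they moved, the 250 bases before the annotated start are printed for Ctla4, Pdcd1 and Btla, which were the 3 of 5 members with an entry (Cd28 and Icos had none). The sequences are from RefSeq on GRCm38.p6, not the mm8 build of the deposited values, each read 5′ to 3′ on the gene's own strand. Ctla4 is at chr1:60908775-60909024 on the plus strand, Pdcd1 at chr1:94052554-94052803 on the minus strand and Btla at chr16:45224087-45224336 on the plus strand. Capitals mark matches, on either strand, to 4 short motifs: GGAAA (the core bound by NFAT), TGANTCA (AP-1), TTCNNNGAA (STAT factors) and AGGTCA (a half-site of ROR receptors).
Ctla4: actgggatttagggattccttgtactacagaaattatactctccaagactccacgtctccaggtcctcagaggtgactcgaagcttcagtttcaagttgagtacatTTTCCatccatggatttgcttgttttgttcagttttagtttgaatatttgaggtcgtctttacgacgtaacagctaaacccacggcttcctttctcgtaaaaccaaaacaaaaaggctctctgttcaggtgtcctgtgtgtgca
Pdcd1: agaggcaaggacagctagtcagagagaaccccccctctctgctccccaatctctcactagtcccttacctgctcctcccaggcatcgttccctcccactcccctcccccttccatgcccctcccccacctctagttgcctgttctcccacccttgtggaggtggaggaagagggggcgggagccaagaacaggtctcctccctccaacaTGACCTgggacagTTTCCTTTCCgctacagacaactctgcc
Btla: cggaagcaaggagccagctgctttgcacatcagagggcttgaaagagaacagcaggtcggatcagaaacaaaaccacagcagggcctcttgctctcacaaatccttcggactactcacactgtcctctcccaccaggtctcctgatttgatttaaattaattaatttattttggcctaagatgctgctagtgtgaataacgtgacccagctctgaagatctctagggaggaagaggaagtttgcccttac
The NFAT core was found once in the Ctla4 window, as TTTCC at bases -144 to -140 from the start, and at 2 adjoining places in the Pdcd1 window, at bases -28 to -24 and -23 to -19. The Pdcd1 window also held the ROR half-site, as TGACCT at bases -41 to -36. No motif of the 4 was found in the Btla window. Of 32851 promoter windows of the same length, 55.6% held the NFAT core, 14.0% the ROR half-site, 6.75% AP-1 and 7.02% STAT. The matches are a description of these letters and not of binding.

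Transcripts of the family's ligands overlapped between the diets. All 6 ligand genes (Cd80, Cd86, Icosl, Cd274, Pdcd1lg2 and Tnfrsf14) were tested, and all 6 overlapped. Of all genes tested, 30.7% were separated as higher and 25.5% as lower, and the rest overlapped too. In limma 0 ligand genes passed in either direction where 2.74% of all genes did, so a count of 0 among so few is near the background. Their median log2 change was 0.17, beside 0.04 for all genes tested. Cd274, which encodes PD-L1, was the most abundant at 21.3 and 19.4 FPKM in the deficient diet libraries and 15.6 and 23.9 FPKM in the normal diet libraries. Cd86 had 10.3 and 5.50 FPKM on the deficient diet and 4.22 and 6.71 FPKM on the normal diet. Its highest value was in deficient diet replicate 1, which also had the highest sum of macrophage and dendritic cell markers, cells that carry CD86. Of these markers, Csf1r, H2-Ab1 and Cd74 were highest in that library. Lyz2 (1934 against 1197 FPKM), Emr1, C1qa and C1qb were instead highest in normal diet replicate 2, and Itgax in normal diet replicate 1. The part of such cells in the Cd86 value was not tested. Pdcd1lg2 (PD-L2) and Tnfrsf14 (HVEM) stayed below 5 FPKM in all 4 libraries. Among other relatives of these ligands, 4632428N05Rik, an older symbol of Vsir for the checkpoint protein VISTA, had 52.7 and 53.0 FPKM on the deficient diet and 47.0 and 45.6 FPKM on the normal diet (limma adjusted p = 0.469), while Cd276 and Vtcn1 stayed under 1 FPKM in every library and were not tested.

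Of the genes that carry CD28 and ICOS signals inward, 16 of 17 were tested, 0 rose and 1 fell, where 1.22% and 1.53% of all genes tested did, with a median log2 change of -0.40 beside 0.04 for all genes. Both deficient diet libraries lay below both normal diet libraries for 11 of the 16 and above them for 1, beside 25.5% and 30.7% of all genes. The one that fell was Fyn, a Src family kinase, at 8.58 and 5.51 FPKM in the deficient diet libraries and 74.8 and 48.2 FPKM in the normal diet libraries (log2 change -2.95 ± 0.31 SE, limma adjusted p = 0.0325). It no longer passed without deficient diet replicate 1, deficient diet replicate 2 or normal diet replicate 1. Grb2, an adaptor that binds the tail of CD28, had 35.1 and 13.6 FPKM on the deficient diet and 148 and 127 FPKM on the normal diet and did not pass (adjusted p = 0.0573 in limma). Lck, the kinase that starts antigen receptor signalling, had 274 and 306 FPKM on the deficient diet, against 453 and 397 FPKM on the normal diet. Pik3cd, a catalytic subunit of the phosphoinositide 3-kinase that both receptors engage, had 60.4 and 82.9 FPKM, against 103 and 88.6 FPKM. Bcl10, an adaptor on the way to NF-kB, had 68.5 and 63.1 FPKM, against 80.0 and 83.7 FPKM. The deficient diet libraries were the lower ones for Lck, Pik3cd and Bcl10, and none of the 3 passed.

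None of the 11 genes listed as effectors of inhibitory receptors passed, where 2.74% of all genes tested did in either direction, so a count of 0 among so few is near the background. Their median log2 change was -0.09. Of the 11, 5 were separated as lower and 3 as higher, beside 25.5% and 30.7% of all genes tested, and 3 overlapped. Ptpn6, the phosphatase SHP-1 that BTLA recruits, had 103 and 80.0 FPKM in the deficient diet libraries and 164 and 182 FPKM in the normal diet libraries (limma adjusted p = 0.0691). Dok2, an adaptor that dampens T cell signalling, had 101 and 116 FPKM on the deficient diet and 205 and 189.7 FPKM on the normal diet (limma adjusted p = 0.0547). Ppp2ca, the catalytic subunit of the phosphatase PP2A, had 82.7 and 8.26 FPKM on the deficient diet, with the libraries of that diet far apart, and 239.9 and 231 FPKM on the normal diet. Ppp2r1a, the scaffold subunit of the same enzyme, overlapped between the diets at 188 and 252 FPKM on the deficient diet and 216 and 164 FPKM on the normal diet.

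Among 11 genes that handle these receptors inside the cell or degrade their mRNAs, 10 were tested, 0 passed in either direction, where 2.74% of all genes did, and the median log2 change was 0.02. Of the 10, 4 were separated as higher and 2 as lower, beside 30.7% and 25.5% of all genes tested, and 4 overlapped. The most abundant were Def6, Lax1, Ap1m1 and Rab11a. Lax1, a membrane adaptor, had 86.8 and 105.7 FPKM in the deficient diet libraries and 78.4 and 59.9 FPKM in the normal diet libraries. Ap1m1, a subunit of an adaptor complex for vesicle sorting, had 36.9 and 40.0 FPKM on the deficient diet, against 41.4 and 41.1 FPKM on the normal diet. Rab11a, a GTPase of recycling endosomes, and Def6 overlapped between the diets. Zc3h12a and Trat1 were singled out from this list after their values were seen, because they passed in limma when the filter was raised to 5 FPKM. Genes of other lists that also passed there were not singled out in this way. Zc3h12a encodes Regnase-1, a nuclease that degrades Icos mRNA, and had 31.7 and 38.7 FPKM on the deficient diet and 12.4 and 16.2 FPKM on the normal diet (limma adjusted p = 0.0555). Trat1, an adaptor that helps bring CTLA-4 to the cell surface, had 9.90 and 9.73 FPKM on the deficient diet and 46.7 and 28.5 FPKM on the normal diet (limma adjusted p = 0.0502).

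Of 19 genes known to respond to costimulation, 18 were tested, 1 rose and 1 fell, where 1.22% and 1.53% of all genes tested did, with a median log2 change of -0.23 beside 0.04 for all genes. Both deficient diet libraries were the lower ones for 12 of the 18 and the higher ones for 4, beside 25.5% and 30.7% of all genes. Il2ra, which encodes a chain of the high-affinity interleukin 2 receptor, rose to 63.9 and 84.3 FPKM on the deficient diet, against 16.2 and 18.6 FPKM on the normal diet (log2 change 2.02 ± 0.20 SE, limma adjusted p = 0.0323). Ifng fell to 91.4 and 73.7 FPKM on the deficient diet, against 1533 and 787 FPKM on the normal diet (log2 change -3.73 ± 0.35 SE, limma adjusted p = 0.0323). Both calls were lost without deficient diet replicate 1, deficient diet replicate 2 or normal diet replicate 1. Ccnd3, a cyclin of the G1 phase, had 175 and 205 FPKM on the deficient diet and 451 and 364 FPKM on the normal diet (limma adjusted p = 0.0540). Tnf had 177 and 146 FPKM, against 104 and 141 FPKM, with no overlap. Cd40lg, the CD40 ligand, overlapped at 272 and 302 FPKM on the deficient diet and 307 and 168 FPKM on the normal diet.

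**Figure D4:**
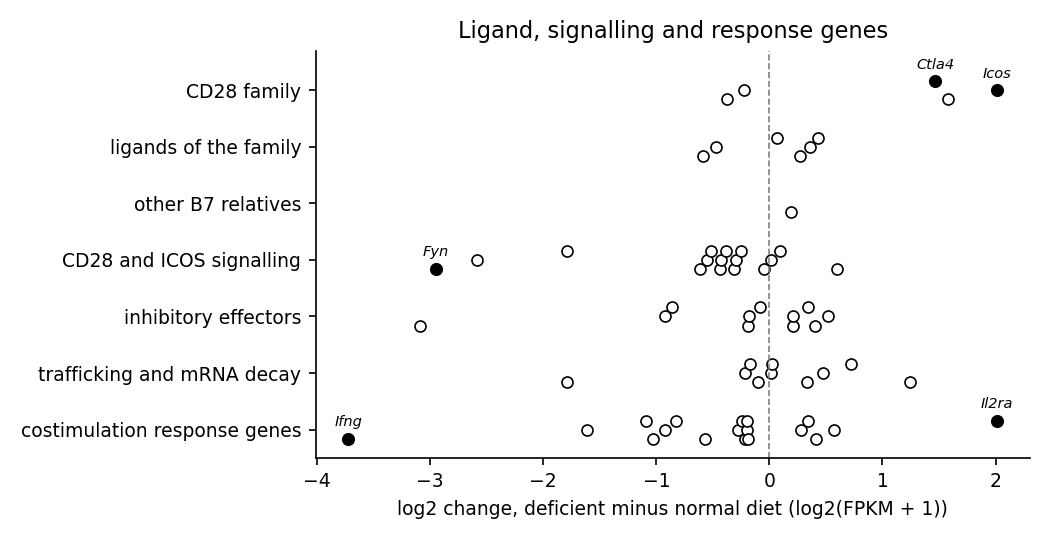
Change on the log2(FPKM + 1) scale, deficient minus normal diet, for every tested gene of the CD28 family and of 6 lists of related genes, 1 point per gene, offset vertically only to keep points apart, with filled and named points for an adjusted p under 0.05. Outside the family, Il2ra passed as higher and Fyn and Ifng as lower, and the ligands lie between -0.58 and 0.43.

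The genes most like each member over the 4 libraries were taken as those with the smallest Euclidean distance between log2(FPKM + 1) values centred on the gene's mean. For Icos these were Pmepa1, Nebl and Plcb4, at distances of 0.143, 0.144 and 0.146. Nebl, for example, had 12.0 and 14.8 FPKM in the deficient diet libraries and 2.32 and 3.02 FPKM in the normal diet libraries. Nearest to Ctla4 were Palld (0.0654), Tox2 (0.0957) and Sppl2b (0.119), and nearest to Pdcd1 were Gnaq (0.0770), Prrt2 (0.0771) and Igf1r (0.140). Gnaq shared with Pdcd1 the gap between the normal diet libraries, with 9.49 and 9.07 FPKM on the deficient diet and 1.49 and 3.48 FPKM on the normal diet. Cd28 was nearest to Trim30a (0.0317), Kdelr1 (0.0385) and Calr (0.0447), and Btla to Cars2 (0.0206), Orc6 (0.0438) and Mettl6 (0.0465). With 4 libraries many genes have such profiles: between the members themselves, Ctla4 was in place 87 from Icos at a distance of 0.561, and Pdcd1 in place 131 at 0.657.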

How the data were processed

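RNA from sorted liver double negative T cells was extracted with Trizol and sequenced after an Illumina TruSeq preparation, per the labels' protocols. The authors deposited 1 table of non-whole values per gene and library, taken here as FPKM from their range and sums, since neither table nor labels name the unit. The submitters' processing notes name Bowtie 0.12.2 and build mm8; quantifier and annotation: not given in the sources used here. Read depth is unknown. Among genes under 0.05 FPKM the most frequent ratio to normal diet replicate 1 was 0.99, 0.91 and 0.99 in deficient diet replicates 1 and 2 and normal diet replicate 2, shared by 15 of 202, 17 of 234 and 47 of 309 genes, too few to set a relative depth. FPKM from multi-mapped or isoform-split reads can misstate single genes.

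Libraries were grouped by labelled diet. Values were analysed as log2(FPKM + 1), which understates changes of low genes, for the 10423 genes reaching 1 FPKM in 2 or more libraries, using limma 3.58.1 under R 4.3.3 (mean-variance trend, diet only, 2 residual and 2.84 prior degrees of freedom), adjusted over all genes tested by Benjamini-Hochberg at 0.05. This step was tested on simulated data. Folds are ratios of mean FPKM. Ratios between members were compared by exact permutation. The members and lists were chosen with earlier results of these data known, so no set was tested. Named are the 5 members, in each list the called genes and the 4 with the highest mean, summed markers, and the 3 genes nearest to each member; Zc3h12a and Trat1 lie outside this rule, and some listed genes are not reported here. Alternatives were pseudocounts of 0.1 and 5, no filter, a filter of 5 FPKM, quantile normalization, median centring, no trend, the replicate number as a block and leaving out each library.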

Additional observations from a re-analysis of the deposited data

How the results depend on the processing

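The directions of Icos, Ctla4, Pdcd1 and Cd28 held under all 13 alternatives tried. Whether Icos, Ctla4 and Pdcd1 passed depended on the alternative, and Cd28 passed under none of them. Without a filter on low values 0 genes passed in limma (2768 at an unadjusted p under 0.05), so 0 members, 0 signalling and 0 response genes did, with log2 changes of 2.01 for Icos (adjusted p = 0.132) and 1.47 for Ctla4 (adjusted p = 0.151). Without the trend 141 genes and 1 member passed, and Ctla4 at 1.47 did not (adjusted p = 0.0578). Quantile normalization called 467 genes, 3 signalling genes (Grb2, Fyn and Akt1), 1 inhibitory effector (Dok2), 2 trafficking and decay genes (Trat1 and Zc3h12a) and 4 response genes (Il2ra, Bcl2, Ifng and Ccnd3), and moved Pdcd1, at 1.56, past the threshold. Median centring did so at 1.61. The filter of 5 FPKM called 1 inhibitory effector, 2 trafficking and decay genes and 4 response genes, the same genes as quantile normalization. With 1 library left out, the calls ran from 0 to 352 over all genes (1337 to 2061 at an unadjusted p under 0.05), 0 to 2 members, 0 to 1 signalling, 0 to 2 response and 0 to 1 trafficking genes. Log2 changes ran from 1.91 to 2.11 for Icos, 1.31 to 1.62 for Ctla4, 1.21 to 1.96 for Pdcd1, -0.44 to -0.30 for Cd28 and -0.47 to 0.014 for Btla, which turned positive without normal diet replicate 2. The log2 ratio of Btla over Cd28 ran from -0.033 to 0.32 and was negative without normal diet replicate 1. Beyond the smaller sample, which leaves 1 residual degree of freedom, the cause of lost calls was not tested.

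Deviations of same-numbered libraries from their diet means correlated at -0.284 over 10423 genes. With 2 libraries per diet this rests on a single difference within each diet. It therefore cannot decide whether replicate numbers pair the libraries. With the number as a replicate block 0 genes passed in limma (1844 at an unadjusted p under 0.05), so 0 members, 0 signalling and 0 response genes did, with Icos at 2.01 (adjusted p = 0.0737) and Ctla4 at 1.47 (adjusted p = 0.0943). With crossed numbers as the block, chosen after seeing the data, 52 genes, 1 member (Icos), 0 signalling and 0 response genes passed. The unknown depth limits what the low values, such as those of Btla, Cd80 and Icosl, can show.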
